A study of Rattus norvegicus with 12 samples.

Results

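The comparison described here sets bone defects filled with a polycaprolactone (PCL) scaffold against empty defects, and it uses 6 of the 12 libraries of the series, chosen by their condition labels. The animals were 8-week-old Sprague Dawley rats with a hole drilled in the distal femur, and the tissue in the hole was taken 2 weeks after surgery. The control group (3 libraries) received the same defect without a scaffold, and the PCL group (3 libraries) received a 3D-printed scaffold of PCL, a slowly degrading synthetic polyester. The hydrogel group (gelatin-methacryloyl) and the β-TCP group (β-tricalcium phosphate, a bioceramic), with 3 libraries each, entered the same fit and served to show where PCL stood apart. No genetic change or drug was part of any group. The study's methods speak of independent samples, but no source used here ties a library to a rat, so p-values here measure the spread between these libraries.

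A defect in long bone can heal through a cartilage template that is later invaded by vessels and marrow and replaced by bone. The study describes this route as the main one in its defects. Chondrocytes of this template make type II, IX and XI collagen and aggrecan, and as they enlarge they make type X collagen and the signal Indian hedgehog. A solid polymer implant also draws macrophages, which line its surface, can fuse into multinucleated cells, and take up lipid and debris through scavenger receptors, fatty acid carriers and lysosomal enzymes.

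The 6 libraries held 15180263 to 17357830 fragments, as recovered from the deposited FPKM (fragments per kilobase of gene, scaled to library size). Bone genes were present in all 6, with Col1a1, the main chain of type I collagen, at 5370.3 to 11860.0 FPKM and Bglap, the osteoblast protein osteocalcin, at 221 to 570 FPKM. Control replicate 3 stood apart from the other control libraries. Its 28 cartilage genes summed to 15608.8 FPKM against 2935.9 and 2696.6 in replicates 1 and 2, its globin genes held 1.03% of all FPKM against 9.22% and 14.5%, and its neutrophil genes summed to 91 FPKM against 3182.5 and 4457.8. PCL replicate 3 was the richest in blood, with 25.8% of FPKM in globin genes against 10.7% and 16.9% in PCL replicates 1 and 2. Counts and medians of gene lists are therefore given with and without control replicate 3. Replicates 2 and 3 of the β-TCP group differed by a chi-square of 2.23 per degree of freedom over genes, where other replicate pairs of the series reached 34.1 to 344, and this close pair lowers the spread that all comparisons share.

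Across 12633 genes tested, PCL and control tissue differed in few genes at an adjusted p below 0.05. At that level 31 genes were higher in PCL (0.245% of the genes tested) and 4 were lower (0.0317%). The rule in the study's methods, an unadjusted p below 0.05 with a fold change above 2 or below 0.5, is called the fold threshold and was applied here on the log2(FPKM + 1) scale. It was passed by 300 genes that were higher (2.37%) and 160 that were lower (1.27%), and the median difference over all genes was 0.04 on the log2 scale. All 3 PCL libraries lay above all 3 control libraries for 1307 genes (10.3%) and below them for 991 (7.84%). The counts of gene lists below stand beside these shares of all genes. Without control replicate 3, 91 genes were higher (0.72%) and 119 lower (0.942%) at the fold threshold. When each of the 6 libraries was left out in turn, 62 genes (0.491%) stayed higher and 66 (0.522%) stayed lower at the fold threshold in every fit. With the erythroid genes taken out of each library's total, the median over all genes moved to 0.19 and the counts at the fold threshold became 444 higher and 127 lower.

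**Figure D1:**
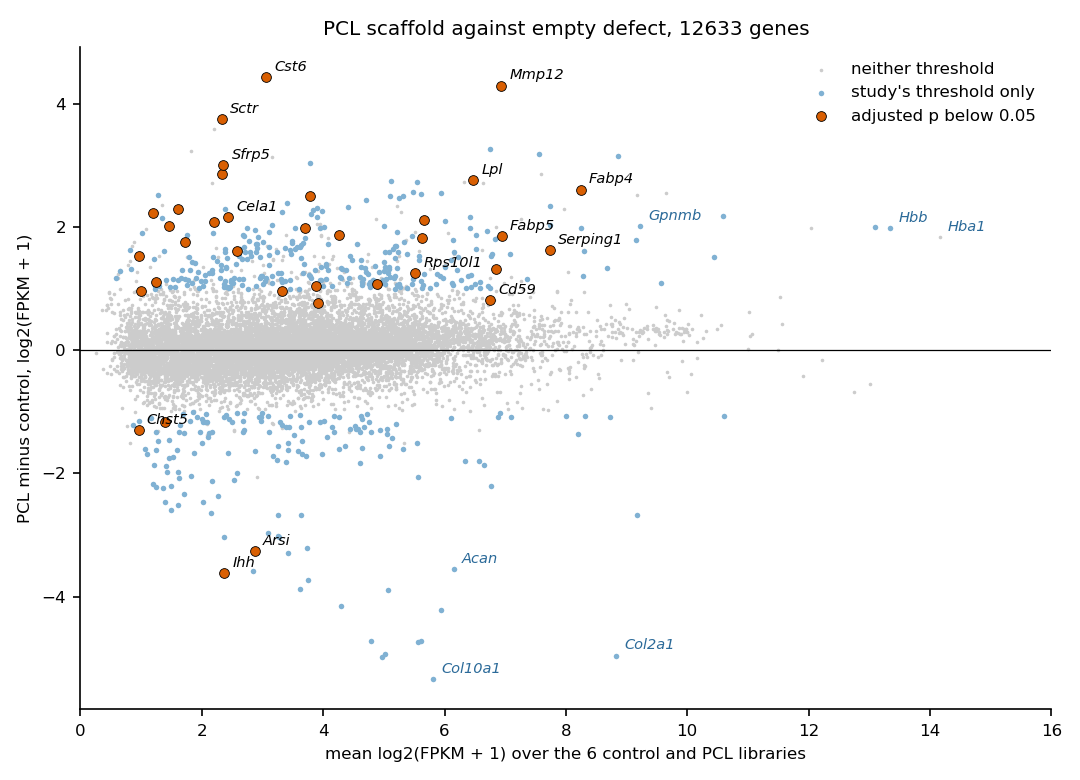
Difference between PCL and control (vertical axis, log2(FPKM + 1)) against mean level (horizontal axis, log2(FPKM + 1) over the 6 libraries) for each of the 12633 genes. Large orange points are the 35 genes at an adjusted p below 0.05, small blue points passed the fold threshold only, and the most negative values belong to cartilage genes such as Col10a1 at -5.34.

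The 31 genes higher in PCL at the adjusted p are described by the known role of their products. Cst6, which encodes the secreted cysteine protease inhibitor cystatin E/M, measured 0.706, 1.1 and 0.588 FPKM in control replicates 1 to 3 and 65.9, 38 and 21.1 FPKM in PCL replicates 1 to 3. It was barely present in any empty defect and well expressed in every PCL defect. The difference was 4.44 ± 0.42 on the log2 scale (SE, n = 3 against 3, adjusted p = 0.0038), the largest positive value of the 12633 genes. Mmp12, the macrophage elastase, stood at 20.7, 24.5 and 36.5 FPKM in control and at 850, 504 and 367 FPKM in PCL. Every PCL library was thus above every control library, with a ratio of mean FPKM of 21.1 and a difference of 4.30 ± 0.68 (SE, adjusted p = 0.034). In bulk tissue such as this, more cells of one type and more RNA of a gene per cell cannot be told apart.

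Cela1, a chymotrypsin-like elastase better known from the pancreas, had the smallest adjusted p. It measured 1.12, 1.73 and 1.88 FPKM in control and 12.6, 9.11 and 9.8 FPKM in PCL, a difference of 2.16 ± 0.17 (SE, adjusted p = 0.0016). Serping1, the C1 inhibitor of the complement cascade, was among the most abundant of the 31, at 146, 129 and 91.6 FPKM in control and 507, 301 and 343 FPKM in PCL. Its difference was 1.63 ± 0.26 (SE, adjusted p = 0.034). Cela1 and Cst6 were the 2 genes that passed the adjusted p in all 6 fits that left out a library, while Serping1 and Mmp12 each did so in 1 of the 6.

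Both elastases have a TATA motif just upstream of their start in the RefSeq annotation, and their promoters are shown because both genes passed the adjusted p with large differences. Srxn1, which holds 2 AP-1 motifs, and Col10a1, the gene with the most negative difference, are shown beside them. The windows run from 250 bases before to 50 after the annotated start on build GRCr8, which is not the build of the files (Rnor_6.0), and capitals mark matches to any of 4 motifs on either strand. The TATA box was searched as TATAAA. The site of AP-1, a factor induced by growth signals and stress, was searched as TGANTCA. The E-box, bound by basic helix-loop-helix factors, was searched as CACGTG. The core of sites for ETS factors was searched as GAGGAA, and none of the motifs contains another. The windows are chr7:133665012-133665311 (minus strand) for Cela1, chr8:12866402-12866701 (plus) for Mmp12, chr3:161064562-161064861 (plus) for Srxn1 and chr20:39737286-39737585 (plus) for Col10a1.
Cela1: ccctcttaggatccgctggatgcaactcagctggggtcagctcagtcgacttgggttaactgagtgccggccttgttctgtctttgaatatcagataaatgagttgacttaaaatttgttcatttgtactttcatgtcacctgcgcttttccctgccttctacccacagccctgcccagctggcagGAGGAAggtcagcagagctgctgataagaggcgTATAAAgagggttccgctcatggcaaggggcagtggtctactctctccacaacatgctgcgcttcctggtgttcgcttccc
Mmp12: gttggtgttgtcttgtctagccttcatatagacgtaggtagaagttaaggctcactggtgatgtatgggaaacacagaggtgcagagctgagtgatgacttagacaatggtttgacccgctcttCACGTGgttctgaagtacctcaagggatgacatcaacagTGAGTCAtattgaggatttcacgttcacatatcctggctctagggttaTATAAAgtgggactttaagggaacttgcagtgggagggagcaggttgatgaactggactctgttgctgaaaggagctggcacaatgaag
Srxn1: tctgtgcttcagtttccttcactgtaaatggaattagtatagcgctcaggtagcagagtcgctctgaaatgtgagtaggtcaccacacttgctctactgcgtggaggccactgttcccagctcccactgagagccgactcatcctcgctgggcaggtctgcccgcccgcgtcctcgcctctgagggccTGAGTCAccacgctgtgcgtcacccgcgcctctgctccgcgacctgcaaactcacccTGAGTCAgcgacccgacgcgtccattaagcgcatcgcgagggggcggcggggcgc
Col10a1: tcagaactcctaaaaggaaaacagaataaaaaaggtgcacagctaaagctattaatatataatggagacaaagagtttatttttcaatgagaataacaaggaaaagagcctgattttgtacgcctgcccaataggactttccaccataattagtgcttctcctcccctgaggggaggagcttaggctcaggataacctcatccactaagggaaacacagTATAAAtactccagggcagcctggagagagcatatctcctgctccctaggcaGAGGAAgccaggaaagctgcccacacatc
In Mmp12 the E-box begins at position -126, the AP-1 motif at -87 and the TATA motif at -39, counted from the start, and in Cela1 the TATA motif begins at -31. The promoter table matched 21 of the 31 higher genes by symbol or gene identifier. Of these, 5 held the TATA motif (Cela1, Mmp12, Krt76, Rgs1 and Hspb7), against 14.2% of all 33469 promoters. The AP-1 motif was in 2 of the 21 (7.33% of all promoters), the E-box in 1 (6.42%) and the ETS core in 7 (27.6%). The table matched 2 of the 4 lower genes, and neither held any of the 4 motifs. A match says only that the letters occur in the window.

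Carriers and enzymes of lipid were the most abundant group among the 31. Fabp4, a fatty acid carrier of fat cells and macrophages, measured 165, 160 and 68.4 FPKM in control and 932, 694 and 643 FPKM in PCL, a difference of 2.61 ± 0.43 (SE, adjusted p = 0.036). Lpl, which releases fatty acids from lipoproteins at the cell surface, stood at 49, 39 and 18.8 FPKM in control and 340, 217 and 168 FPKM in PCL, a difference of 2.77 ± 0.36 (SE, adjusted p = 0.015). For both genes the lowest PCL library was more than 3 times the highest control library. Fabp5, a related carrier, was at 58.8 to 66.3 FPKM in control and 219 to 256 FPKM in PCL, a narrow range in both groups (1.85 ± 0.24, adjusted p = 0.015). Lipa, the lysosomal acid lipase that hydrolyses cholesteryl esters, was at 19.7 to 31.8 FPKM in control and 72.8 to 119 FPKM in PCL (1.83 ± 0.29, adjusted p = 0.034). Pld3, a lysosomal exonuclease, was at 60.3 to 81.9 FPKM in control and 171 to 191 FPKM in PCL (1.32 ± 0.19, adjusted p = 0.025). Fabp4 is also a marker of fat cells, whose defining hormone Adipoq measured 13.6, 1.05 and 0.972 FPKM in PCL and 13, 15.5 and 0.701 FPKM in control, with overlapping groups, and the part of fat cells in the Fabp4 value was not tested.

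Genes of redox defence and of organelles related to lysosomes formed a smaller group. Slc7a11, the cystine importer that feeds glutathione synthesis, measured 0.455, 0.536 and 0.133 FPKM in control and 7.54, 4.57 and 2.54 FPKM in PCL (2.02 ± 0.33, adjusted p = 0.036). Srxn1, which repairs over-oxidised peroxiredoxins, rose less, from 5.67 to 7.05 FPKM in control to 10.5 to 15.7 FPKM in PCL (0.97 ± 0.15, adjusted p = 0.033). Mfsd12, a cysteine transporter of lysosomes and melanosomes, was at 16.1 to 21.5 FPKM in control and 40.7 to 43.1 FPKM in PCL (1.08 ± 0.13, adjusted p = 0.014). Gpr143, a receptor of the melanosome membrane, was nearly silent in control at 0.0761 to 0.244 FPKM and reached 1.38 to 3.49 FPKM in PCL (1.54 ± 0.22, adjusted p = 0.025). It averaged 0.159 FPKM in hydrogel and 0.188 FPKM in β-TCP. Only its PCL libraries reached the 1 FPKM needed for testing, so its call partly follows from that filter. Fnip2, a partner of folliculin in nutrient sensing at the lysosome, changed by 0.77 ± 0.12 (adjusted p = 0.036), which is below a doubling.

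Signalling and surface genes formed another group. Il18bp, the secreted decoy that binds interleukin 18, was at 4.87 to 6.05 FPKM in control and 19.6 to 32.5 FPKM in PCL (1.98 ± 0.27, adjusted p = 0.019). Rgs1, a brake on chemokine receptor signalling in leukocytes, was at 4.62 to 4.99 FPKM in control and 20.6 to 51.4 FPKM in PCL (2.50 ± 0.40, adjusted p = 0.034). Tnfsf8, the CD30 ligand, differed by 1.76 ± 0.24 (adjusted p = 0.019) and Alcam, an adhesion molecule of leukocytes and stroma, by 1.87 ± 0.24 (adjusted p = 0.015). Cd59, which blocks the last step of complement lysis, showed the tightest separation, at 76.2 to 83.8 FPKM in control and 136 to 145 FPKM in PCL (0.82 ± 0.09, adjusted p = 0.012). Serping1 and Cd59, which both restrain complement, were thus among the 31. In the complement list of 24 genes tested, 3 were higher and 1 lower at the fold threshold, with a median of 0.25. Met, the receptor of hepatocyte growth factor, was at 2.25 to 2.56 FPKM in control and 6.32 to 13.7 FPKM in PCL (1.61 ± 0.26, adjusted p = 0.034). Tspan5, a tetraspanin, differed by 1.05 ± 0.16 (adjusted p = 0.033).

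Some of the 31 are better known from epithelia and secretory tissue than from bone. Sfrp5, a secreted antagonist of Wnt ligands, measured 0.56, 1.49 and 0.493 FPKM in control and 24.9, 10.3 and 9.45 FPKM in PCL (3.01 ± 0.35, adjusted p = 0.013). Sctr, the secretin receptor, was at 0.255 to 0.513 FPKM in control and 13.5 to 21.2 FPKM in PCL (3.76 ± 0.49, adjusted p = 0.015). Neither gene's control libraries came near its PCL libraries. Cldn4, a tight junction protein, was at 0.183 to 0.583 FPKM in control and 5.36 to 6.45 FPKM in PCL (2.29 ± 0.28, adjusted p = 0.014). Psca, a small surface antigen, was at 0.449 to 1.45 FPKM in control and 9.92 to 16.4 FPKM in PCL (2.87 ± 0.45, adjusted p = 0.034), and Krt76, a keratin, differed by 0.97 ± 0.14 (adjusted p = 0.025). The other genes of the 31 were Ankrd34c (2.23 ± 0.28), Ptcd3, a mitochondrial translation factor (2.11 ± 0.30), Hspb7, a small heat shock protein of muscle (2.08 ± 0.35), LOC685590 (1.11 ± 0.18) and Rps10l1, a copy of the ribosomal protein S10 gene (1.26 ± 0.13), with adjusted p values of 0.014, 0.023, 0.047, 0.036 and 0.0074. Reads of Rps10l1 may be shared with its near-identical parent gene, so its value is uncertain.

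**Figure D2:**
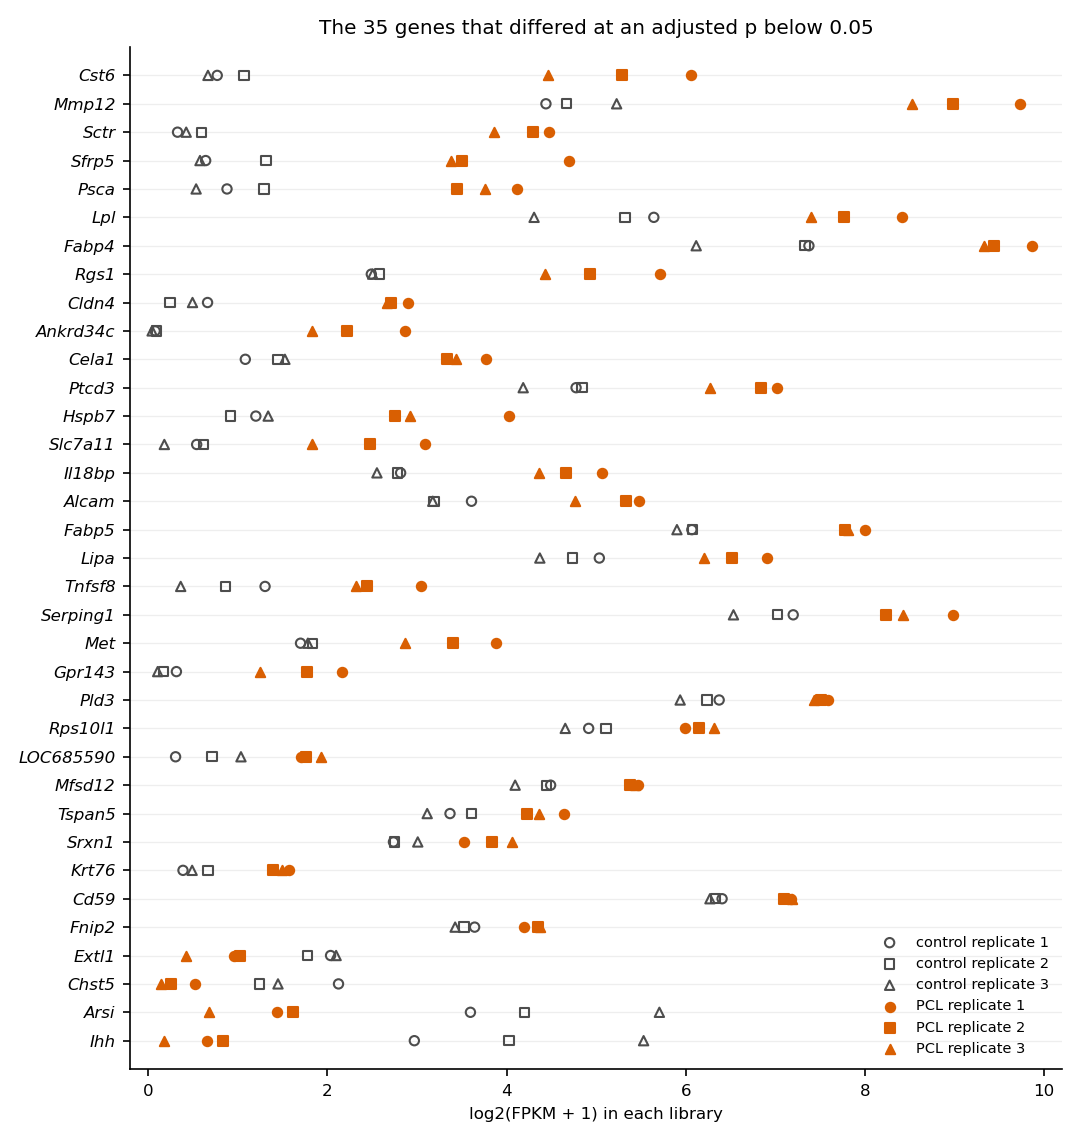
Level of the 35 genes at an adjusted p below 0.05 in each of the 6 libraries (horizontal axis, log2(FPKM + 1)), one gene a row, with open marks for control and filled marks for PCL. No row has overlapping groups, and PCL replicate 1 is the highest PCL library in 26 of the 31 rows where PCL is higher.

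Among the 31 genes, PCL replicate 1 was the highest PCL library for 26 and replicate 3 for 5, and control replicate 3 was the lowest control library for 21. Of the 31, 25 also passed the adjusted p when control replicate 3 was left out. Leaving out control replicate 1 kept 19, and leaving out control replicate 2 or PCL replicate 3 kept 17 each. Without PCL replicate 2, the 2 genes left were Cela1 and Cst6, and without PCL replicate 1, 7 of the 31 remained. When β-TCP replicates 2 and 3 were averaged as 1 library, 18 of the 31 and none of the 4 lower genes passed. A fit of the PCL and control libraries alone kept 7 of the 31 and none of the 4.

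The 4 genes lower in PCL at the adjusted p act in matrix and in cartilage signalling. Ihh, the Indian hedgehog ligand of enlarging chondrocytes, measured 6.84, 15.3 and 45.2 FPKM in control and 0.579, 0.786 and 0.133 FPKM in PCL (-3.62 ± 0.61, adjusted p = 0.045). Arsi, a sulfatase family member, measured 11.1, 17.4 and 51.2 FPKM in control and 1.7, 2.07 and 0.595 FPKM in PCL (-3.26 ± 0.48, adjusted p = 0.025). In both, control replicate 3 was the highest library and PCL replicate 3 the lowest, with no overlap between groups. Chst5, a sulfotransferase of glycans, was at 1.37 to 3.36 FPKM in control and 0.101 to 0.441 FPKM in PCL (-1.30 ± 0.21, adjusted p = 0.034). It averaged 0.127 FPKM in hydrogel and 0.228 FPKM in β-TCP. Only its control libraries reached the 1 FPKM needed for testing, so its call partly follows from that filter. Extl1, a glycosyltransferase of heparan sulfate chains, was at 2.43 to 3.28 FPKM in control and 0.34 to 1.03 FPKM in PCL (-1.17 ± 0.19, adjusted p = 0.036). The adjusted p was passed by 3 of these 4 without control replicate 1 or 3, by 2 without control replicate 2, and by none when any PCL library was left out.

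The list of lipid-handling and multinucleating macrophage genes was higher as a group. Of its 22 members tested, 10 were higher and none lower at the fold threshold, 4 of them at the adjusted p, and 13 had all PCL libraries above all control libraries. The shares of all genes were 2.37% higher at the fold threshold, 0.245% higher at the adjusted p and 10.3% with all PCL libraries above. The list was chosen with earlier results of these data known. It holds Mmp12, Lpl and Fabp4, described above, so its counts are not independent of those calls. The median difference was 0.73 against 0.04 over all genes, and it was also 0.73 without control replicate 3, with 7 members higher. Its summed FPKM overlapped between groups, at 7262.8, 6075 and 10635.4 in control and 14663.1, 11927.3 and 9892.7 in PCL. Gpnmb, a lysosomal glycoprotein of macrophages that ingest lipid, measured 302, 244 and 350 FPKM in control and 1617.1, 1127.2 and 947 FPKM in PCL (2.02 ± 0.36, adjusted p = 0.054). Lgals3, or galectin 3, measured 130, 109 and 249 FPKM in control and 788, 556 and 496 FPKM in PCL (1.98 ± 0.45, adjusted p = 0.097). Both were higher at the fold threshold in all 6 fits that left out a library, as was Trem2, a lipid-sensing receptor, at 14.2 to 24 FPKM in control and 54.3 to 85.7 FPKM in PCL (1.69 ± 0.39, adjusted p = 0.10). Apoe, the lipoprotein ligand, also passed the fold threshold (1.52 ± 0.51), as did the fatty acid transporter Cd36 (1.46 ± 0.40) and Chi3l1 (1.21 ± 0.44). Spp1, or osteopontin, which bone cells also make in large amounts, gave -0.15 ± 0.38 and did not pass, nor did the efflux pump Abca1 (0.71 ± 0.24) or the lipid droplet protein Plin2 (0.58 ± 0.25).

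General macrophage genes moved less than this list. Of 21 tested, 3 were higher at the fold threshold and none lower, beside 2.37% and 1.27% of all genes. PCL was above control without overlap in 10, against 10.3% of all genes, and the median was 0.52, or 0.40 without control replicate 3. The 3 were Cd5l, a secreted scavenger-receptor protein (2.25 ± 0.46, at 0.812 to 6.81 FPKM in control and 19.7 to 22 FPKM in PCL), Itgam, the integrin chain CD11b (1.60 ± 0.42), and Fcgr1a, an Fc receptor (1.06 ± 0.38). The pan-macrophage marker Cd68 was at 170 to 244 FPKM in control and 237 to 363 FPKM in PCL (0.63 ± 0.25, adjusted p = 0.24), and its groups overlapped. Of 37 Toll-like, Fc and inhibitory myeloid receptors, 8 were higher (beside 2.37% of all genes) and none lower, with a median of 0.69. None passed the fold threshold without control replicate 3, where the median was 0.43. The 4 with the largest values were Lilrb3 (2.00 ± 0.76), Clec7a (1.37 ± 0.40), Clec4d (1.31 ± 0.57) and Cd300a (1.30 ± 0.39). Integrins went both ways, with Itgb2 (1.80 ± 0.51), Itgam and Itgax (1.34 ± 0.28) higher and Itga10, a collagen receptor of chondrocytes, lower (-1.06 ± 0.39) among 23 tested, with a median of -0.12, or -0.07 with 2 higher and none lower without control replicate 3.

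Proteases and lysosomal genes did not move as whole families. Among 20 metalloproteinases and their inhibitors, Mmp12 was higher and Timp3 lower (-1.11 ± 0.40), and the median was -0.14, or -0.01 with Mmp12 alone past the threshold without control replicate 3. Among 25 cathepsins, cystatins and other inhibitors, 3 were higher, Cst6, Stfa2 (2.27 ± 1.01) and Cst7 (1.18 ± 0.38), and none lower, with a median of 0.38. Stfa2 and Cst7 did not pass without control replicate 3, which left 1 and a median of 0.27. Of 34 lysosomal hydrolases and membrane proteins, Lipa alone passed, with a median of 0.08 (0.10 without that library). The osteoclast list had a median of 0.04 over 20 genes and 1 member past the threshold, Car2, which erythroid cells also express (1.79 ± 0.70) and which did not pass without control replicate 3, where the median was 0.03. The osteoclast enzymes themselves passed neither threshold, with Ctsk at 2156.8 to 3579.7 FPKM in control and 2359.3 to 3417.8 FPKM in PCL (0.01 ± 0.29) and Acp5 at 794 to 1109.3 and 575 to 882 FPKM (-0.44 ± 0.28).

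Cartilage was the group with the largest differences, and it was lower in PCL. Of 24 cartilage matrix and chondrocyte genes tested, 20 were lower and none higher at the fold threshold, beside 1.27% and 2.37% of all genes. All PCL libraries were below all control libraries in 21, against 7.84% of all genes, and the median was -3.00. None of the 24 passed the adjusted p. Col2a1, the main collagen of cartilage, measured 1298.3, 1370.5 and 9071 FPKM in control and 166, 116 and 26.3 FPKM in PCL (-4.96 ± 1.27, adjusted p = 0.12). Acan, which encodes aggrecan, measured 151, 118 and 811 FPKM in control and 23.7, 22.1 and 14.6 FPKM in PCL (-3.56 ± 0.69, adjusted p = 0.072). The highest control value was that of replicate 3 in both, but replicates 1 and 2 were also above every PCL library. Without control replicate 3, 17 of the 24 were still lower at the fold threshold and the median was -2.25. The type IX collagen genes Col9a1, Col9a2 and Col9a3 gave -4.99 ± 1.20, -4.73 ± 1.06 and -4.74 ± 1.11, the link protein Hapln1 -4.94 ± 0.95, the matrix protein Comp -4.22 ± 1.05, Matn3 -3.73 ± 0.83, and the master regulator Sox9 -1.50 ± 0.39. Sox6 (0.43) was the only one of the 24 with a positive value.

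Genes of hypertrophic cartilage and hedgehog signaling followed the same direction. Of 15 tested, 9 were lower and none higher at the fold threshold, beside 1.27% and 2.37% of all genes. All 15 values were negative, and the median was -1.08, or -0.53 with 5 lower without control replicate 3. Col10a1, the collagen of enlarged chondrocytes whose promoter is printed above, measured 130, 284 and 1219.3 FPKM in control and 5.85, 17.5 and 4.44 FPKM in PCL. The difference of -5.34 ± 0.93 (adjusted p = 0.054) was the most negative of all genes tested. The hedgehog receptor and target Ptch1 was at 7.54 to 35.3 FPKM in control and 3.02 to 4.73 FPKM in PCL (-1.72 ± 0.42), the hedgehog effector Gli1 gave -1.62 ± 0.40, the parathyroid hormone receptor Pth1r -1.36 ± 0.40 and Scin -1.78 ± 0.44. Ligand, receptor and effector of the hedgehog pathway were thus all lower at the fold threshold. Lect1, or chondromodulin, of the cartilage list (-4.16 ± 1.08), Clec3a (-4.72 ± 1.27), PCOLCE2 (-3.90 ± 0.72), Anxa8 (-3.88 ± 0.75) and Car12, a carbonic anhydrase (-3.58 ± 0.63), were also among the 15 largest decreases that held in every fit.

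Of the 66 genes lower at the fold threshold in every fit, control replicate 3 was the highest control library for 65, and PCL replicate 3 was the lowest PCL library for 58. All 66 had every PCL library below every control library, which their choice itself favours. It already required the threshold in every fit that left out a library, that without control replicate 3 included. None of the 66 differed from the hydrogel or the β-TCP group at the adjusted p. Of all genes, 0.103% were higher and 0% lower than in hydrogel at that level. Against β-TCP these shares were 0.0871% and 0.57%, so the absence of calls among the 66 lies near the background. The median of the 66 was -2.23 against control, -0.20 against hydrogel and -0.27 against β-TCP.

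Other matrix lists were also mostly lower, beside 1.27% of all genes lower at the fold threshold. Of 17 fibrillar and fibril-associated collagens 4 were lower (Col27a1 -1.60 ± 0.35, Col12a1 -1.08 ± 0.34, Col6a1 -1.07 ± 0.42, Col1a2 -1.06 ± 0.39) and none higher, with a median of -0.86. Of 21 genes of collagen processing and crosslinking 5 were lower, including the prolyl hydroxylases P3h2 (-2.65 ± 0.56) and P4ha2 (-1.32 ± 0.42) and the lysyl oxidases Loxl4 (-1.55 ± 0.45) and Loxl2 (-1.30 ± 0.51), with a median of -0.63. Of 28 small leucine-rich proteoglycans and matrix glycoproteins 6 were lower, and the median was -0.48. Mgp, an inhibitor of mineralisation, was the strongest, at 827, 1064.1 and 3570.5 FPKM in control and 275, 307 and 139 FPKM in PCL (-2.68 ± 0.52, adjusted p = 0.072). Thbs3 (-1.81 ± 0.38), Prelp (-1.71 ± 0.51) and Cilp2 (-1.47 ± 0.55) were lower as well. Of 14 basement membrane genes 1 was lower, Nid2 (-1.69 ± 0.37), with a median of -0.66, and of 39 sulfatases and glycosaminoglycan enzymes 2 were lower, Arsi and Chst11 (-1.21 ± 0.31), with a median of -0.31. Each of these 5 lists kept 1 or 2 members lower without control replicate 3, with medians of -0.18 to -0.40.

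Bone-forming genes leaned to lower values with few past the threshold. In 22 of 24 osteoblast and osteocyte genes the difference was negative, and 9 had all PCL libraries below all control libraries, against 7.84% of all genes. Of the 24, 2 were lower at the fold threshold, Smpd3, which bone mineralisation needs (-1.43 ± 0.36), and Tnfrsf11b, or osteoprotegerin, the decoy that restrains osteoclasts (-1.01 ± 0.32), beside 1.27% of all genes, and neither passed without control replicate 3. The median was -0.41, or -0.38 without that library. Col1a1 measured 10514.9, 7901.6 and 11860 FPKM in control and 7694.5, 7749.5 and 5370.3 FPKM in PCL (-0.54 ± 0.32, adjusted p = 0.37). Sp7, the osteoblast transcription factor osterix, gave -0.73 ± 0.31 and Runx2 -0.68 ± 0.27, with no overlap between groups in either, and Bglap gave -0.10 ± 0.44. The 27 genes of the list that the table holds summed to 6120.1, 5472.5 and 10070.8 FPKM in control and 6674.4, 6688.7 and 4820.5 FPKM in PCL.

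**Figure D3:**
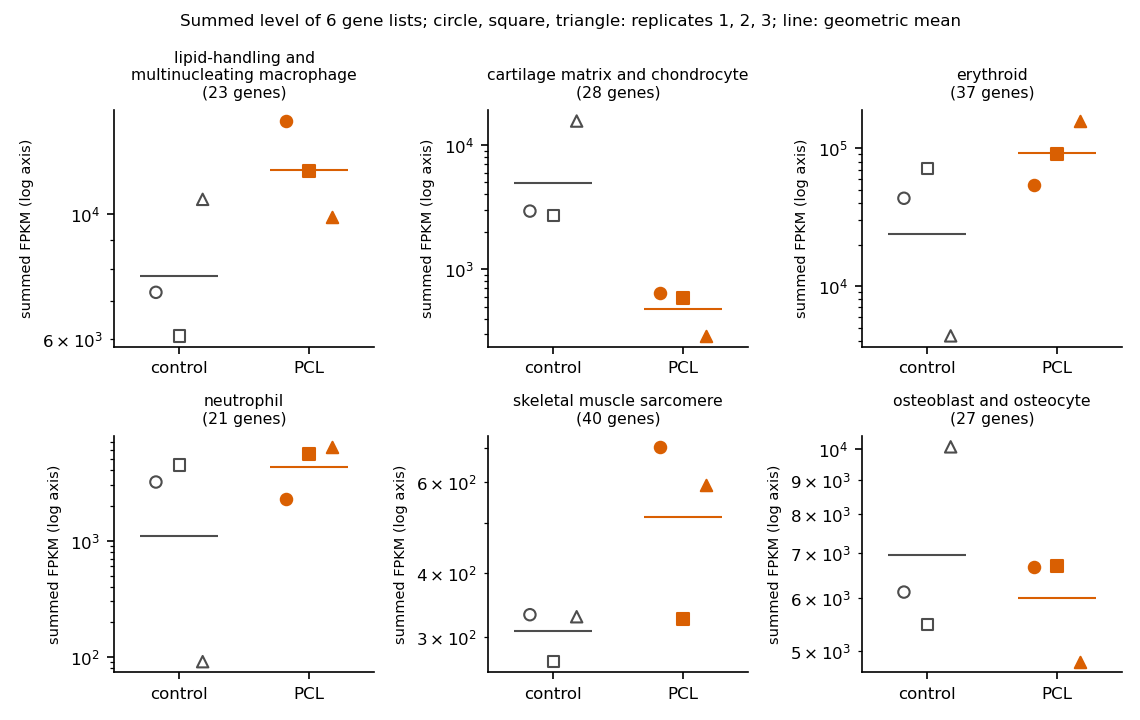
Summed FPKM (vertical log axes) of 6 gene lists in each control (open) and PCL (filled) library, with circles, squares and triangles for replicates 1, 2 and 3 and a line at the geometric mean. Cartilage genes are lower in all PCL libraries, while the erythroid and neutrophil sums of control replicate 3 (4347.9 and 91 FPKM) lie far below those of the other 5 libraries.

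Blood genes gave large values whose calls depended on single libraries of both groups. Of 36 erythroid genes tested 25 were higher at the fold threshold, beside 2.37% of all genes, and all 36 values were positive, with a median of 2.10. Without control replicate 3 the median was 0.87 and 1 gene passed. Without PCL replicate 2 the median was 2.13 and 4 genes passed, and without PCL replicate 3 it was 1.7 and none passed. Hbb, the beta globin, measured 8372.7, 15880.7 and 1082 FPKM in control and 13262.7, 18386.3 and 36197.1 FPKM in PCL (1.98 ± 0.85, adjusted p = 0.26). The groups overlapped, and in all 36 genes PCL replicate 3 was the highest PCL library and control replicate 3 the lowest control library. Ahsp, the chaperone of alpha globin (3.15 ± 1.28), Car1, the red cell carbonic anhydrase (3.19 ± 1.27), Klf1, the erythroid transcription factor (2.74 ± 1.09), and Hemgn (2.79 ± 1.21) behaved alike. PCL was above control without overlap in 4 of the 36, near the share of 10.3% over all genes.

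Leukocyte and proliferation lists also moved with control replicate 3, and their calls stand beside 2.37% of all genes higher and 1.27% lower. The neutrophil list had a median of 0.77 over 20 genes with 2 higher, Fpr1 (1.53 ± 0.68) and Padi4 (1.35 ± 0.60), and a median of -0.48 with 3 lower and none higher without that library. For B cell genes the median went from 0.25 to -0.91 over 26 genes, with none past the fold threshold before and 3 lower after, and its most abundant members were Cd24 (-1.30 ± 0.68) and Cd79b (0.40 ± 1.02). Eosinophil and mast cell genes went from 0.36 to -0.44 over 16 genes, with Alox15, a lipid oxygenase, the 1 member that was higher (3.27 ± 1.14). Without that library none was higher and 1 was lower. The T and cytotoxic lymphocyte list had a median of 0.24 over 22 genes, or -0.25 without that library, and none passed in either (Cd4 0.44 ± 0.29, Nkg7 0.26 ± 0.58). Megakaryocyte and platelet genes had a median of 0.53 over 15 genes, or -0.12 without that library. Pf4 was higher (1.16 ± 0.38) and Thbs1 lower (-1.10 ± 0.35), and neither passed without it. The medians of these 5 lists therefore changed sign without control replicate 3. That of the B cell list also changed sign without PCL replicate 1, to -0.12. Mitotic genes (53 tested, 3 higher, median 0.83) and DNA replication genes (42 tested, 5 higher, median 0.74) kept a positive median without it, at 0.25 and 0.24, but no member passed. The cyclins Ccne1 (1.72 ± 0.69), Ccnb1 (1.35 ± 0.58) and Ccnb2 (1.29 ± 0.58) were the 3 mitotic genes, and Rrm2 (1.36 ± 0.56), Tk1 (1.35 ± 0.51), Rfc4 (1.20 ± 0.49) and Orc1 (1.11 ± 0.45) were among the 5 replication genes. Mki67, the proliferation marker Ki-67, measured 51.7, 96.3 and 7.01 FPKM in control and 70.2, 85.4 and 147 FPKM in PCL (1.49 ± 0.76).

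Skeletal muscle genes set the PCL libraries apart from each other. Acta1, the actin of skeletal muscle, measured 67.9, 0.0401 and 56 FPKM in PCL and 1.05, 0.0458 and 0.0853 FPKM in control. It was high in PCL replicates 1 and 3 and near 0 in replicate 2 and in control, and the difference of 3.59 ± 1.73 did not pass (adjusted p = 0.29). The muscle list summed to 704, 324 and 593 FPKM over the PCL libraries and to 331, 268 and 328 FPKM over the control libraries. Of 30 sarcomere genes tested 5 were higher and 1 lower, beside 2.37% and 1.27% of all genes. The median was 1.28, and 22 were higher when PCL replicate 2 was left out. Without control replicate 3 the median was 1.33, with 3 higher and 1 lower. Acta1, Actc1, Myl1, Mylpf, Tnnc2, Mb, Tnni2 and Ckm, all genes of muscle, were among the 10 genes with the widest range over the PCL libraries. The embryonic and perinatal myosins Myh3 (1.90 ± 0.84) and Myh8 (1.63 ± 0.60) passed the fold threshold. All PCL libraries, replicate 2 included, were above all control libraries in 4 sarcomere genes, against 10.3% of all genes. Tnnc1, the troponin C of slow muscle, was 1 of these, at 0.883 to 4.58 FPKM in control and 7.39 to 18 FPKM in PCL (1.86 ± 0.43). Myl3 was the 1 lower gene (-1.88 ± 0.38). Des, the intermediate filament of muscle, was higher among 13 pericyte and smooth muscle genes (1.51 ± 0.67) and Cspg4 lower (-1.15 ± 0.37), with a median of -0.28, or -0.17 with 1 higher and none lower without control replicate 3.

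**Figure D4:**
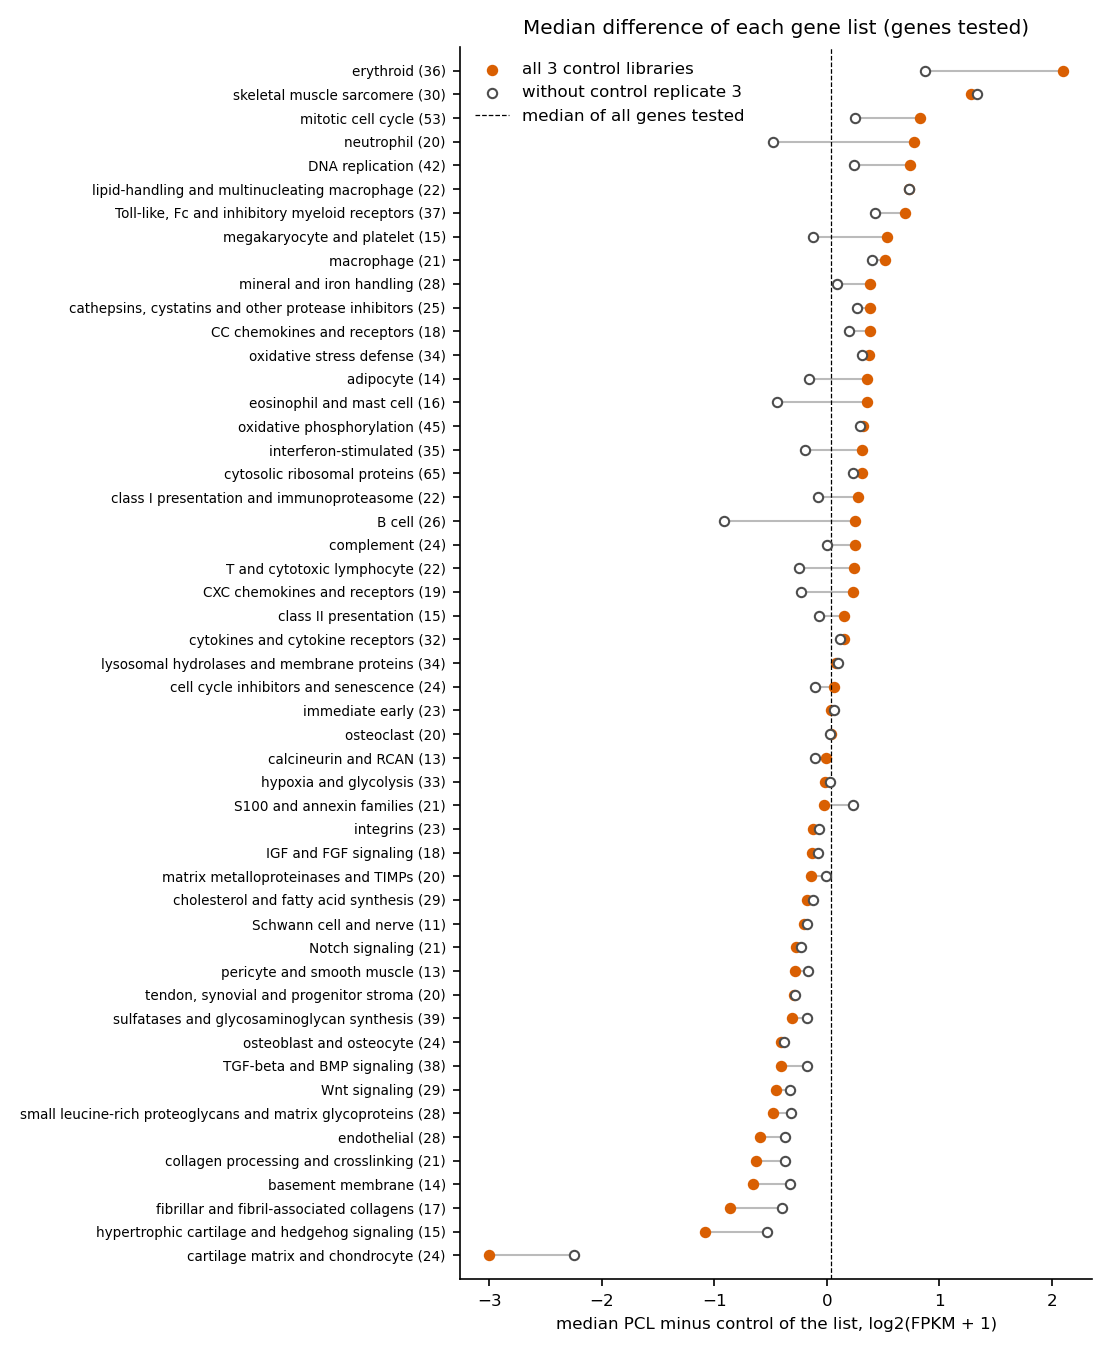
Median difference between PCL and control (horizontal axis, log2(FPKM + 1)) of each of 51 gene lists, with the number of genes tested in brackets, with all control libraries (orange) and without control replicate 3 (open). The neutrophil and B cell medians cross 0 without that library (0.77 to -0.48 and 0.25 to -0.91), while the lipid-handling macrophage list stays at 0.73 and cartilage at -3.00 and -2.25.

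Cytokine, CC chemokine and complement lists held 3 or 4 higher genes each and the CXC list 1, at a background of 2.37%. Of 32 cytokines and cytokine receptors 4 were higher, among them Il1rn, the interleukin 1 receptor antagonist, at 1.93 to 10.6 FPKM in control and 21.8 to 34.3 FPKM in PCL (2.22 ± 0.63), Il18bp, the decoy receptor Il1r2 (1.96 ± 0.70) and Osm, the cytokine oncostatin M (1.23 ± 0.40). The groups overlapped for Il1r2 and Osm, and 2 of the 4 were higher without control replicate 3. Il1b gave 1.11 ± 0.68 and Il1r1 0.13 ± 0.26, and Ptgs2, the inducible cyclooxygenase, was lower (-1.32 ± 0.38). The list median was 0.15, or 0.12 without control replicate 3. Of 18 CC chemokines and receptors 3 were higher, Ccl6 (2.03 ± 0.89), Ccl9 (1.93 ± 0.50) and Ccl24 (1.43 ± 0.43), of which Ccl9 held in every fit, and the list median was 0.38, or 0.20 with 1 higher and 1 lower without control replicate 3. Of 19 CXC chemokines and receptors 1 was higher, Pf4, with a median of 0.23, which turned to -0.23 with none higher and 1 lower without that library. Complement had 3 higher of 24, Serping1, Itgax and C5ar1 (1.19 ± 0.38), and 1 lower, Clu (-1.33 ± 0.40), with a median of 0.25, or 0 with 1 higher and none lower without it. Interferon-stimulated genes (1 of 35 higher, Ifi27l2b at 1.19 ± 0.39, median 0.31), class I presentation (1 of 22, RT1-M2 at 1.04 ± 0.20, median 0.28) and class II presentation (none of 15, median 0.15) held few calls, beside 2.37% of all genes. The class II genes Cd74 and RT1-Da gave 0.46 ± 0.42 and 0.53 ± 0.40. Medians of the interferon, class I and class II lists without control replicate 3 were -0.19, -0.08 and -0.07.

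Of 34 oxidative stress genes 7 were higher and none lower, beside 2.37% and 1.27% of all genes. PCL was above control without overlap in 14, against 10.3% of all genes, and the median was 0.37, or 0.31 with 4 higher without control replicate 3. Gsta4 (2.16 ± 0.76), Mgst3 (1.88 ± 0.58), Gclm (1.64 ± 0.61) and Prdx2 (1.33 ± 0.49) were lowest in control replicate 3 and highest in PCL replicate 3, as the erythroid genes were, and the part of red cells in these values was not tested. Slc7a11 was instead highest in PCL replicate 1. The classic responders Hmox1 (0.32 ± 0.18) and Nqo1 (0.31 ± 0.30) did not pass, and their groups overlapped. The ferritin chains Fth1 (0.63 ± 0.23) and Ftl1 (0.57 ± 0.14), which store iron, had PCL above control without overlap, but none of 28 mineral and iron genes passed and their median was 0.38, or 0.09 without control replicate 3.

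Translation and respiration genes were mostly higher by small amounts. Of 65 cytosolic ribosomal protein genes, 56 had all PCL libraries above all control libraries, against 10.3% of all genes, and all 65 values were positive with a median of 0.31. Of 45 oxidative phosphorylation genes 36 had that order, 44 values were positive and 1 was negative, and the median was 0.32. Only 1 gene of each list passed the fold threshold, Rplp2 (1.04 ± 0.41) and Cox6a2 (1.15 ± 0.41). The medians were 0.23 and 0.29 without control replicate 3 and 0.49 in both with the erythroid genes taken out of the total, but 0.09 and 0.19 with quantile normalization.

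Vessel and signalling lists leaned to lower values in PCL. Of 28 endothelial genes 15 had all PCL libraries below all control libraries, against 7.84% of all genes, and 2 passed the fold threshold, Apln, the ligand apelin (-1.12 ± 0.43), and Esm1 (-1.09 ± 0.33), with a median of -0.59, or -0.37 without control replicate 3. Pecam1, the adhesion molecule CD31, was at 25.8 to 47.8 FPKM in control and 15.2 to 20.5 FPKM in PCL (-0.83 ± 0.22, adjusted p = 0.13). Vegfa, the main growth factor of vessels, was lower (-1.28 ± 0.33), as were Car9 (-1.74 ± 0.54), Car12 and Aldoc (-1.32 ± 0.36) among 33 hypoxia and glycolysis genes, whose median was -0.02, or 0.03 with 1 lower instead of 5 without control replicate 3. Of 29 Wnt genes Sfrp5 was higher, and the antagonists Frzb (-2.67 ± 0.75) and Sfrp2 (-1.32 ± 0.52) and the receptor Fzd9 (-1.40 ± 0.38) were lower, with a median of -0.45, or -0.33 with 1 higher and 1 lower without control replicate 3. Secreted Wnt antagonists of the same family thus went in opposite directions. Of 38 TGF-beta and BMP genes 2 were lower, Id4 (-1.17 ± 0.31) and the BMP antagonist Nog (-1.15 ± 0.33), with a median of -0.41, or -0.18 with none past the threshold without it. Among 18 IGF and FGF genes 3 were lower, Fgfrl1 (-1.25 ± 0.38), Fgfr3 (-1.17 ± 0.33) and Igfbp3 (-1.09 ± 0.29), with a median of -0.13, or -0.08 with none past the threshold without it. None of 21 Notch genes passed (median -0.27, or -0.23 with 1 lower without it), with Notch2 at 0.04 ± 0.13 and Rbpj at 0.08 ± 0.15.

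Among 24 cell cycle inhibitors and senescence genes, Gadd45a was higher (1.01 ± 0.36) and Cdkn1c (-1.41 ± 0.37) and Igfbp3 were lower, with a median of 0.06, or -0.11 with no call without control replicate 3. Atf3, a stress-induced transcription factor, was the 1 of 23 immediate early genes that was higher, at 1.71 to 7.91 FPKM in control and 18 to 29.5 FPKM in PCL (2.39 ± 0.54), while Fos (-0.63 ± 0.38), Egr1 (-0.57 ± 0.21) and Junb (-0.21 ± 0.22) did not pass. In the tendon, synovial and progenitor list Pi16 was higher (1.40 ± 0.39) and Tnmd (-1.64 ± 0.69) and Clu lower of 20, and in the S100 and annexin list Anxa8 and S100b (-1.83 ± 0.63) were lower of 21. S100b was also the 1 lower gene of 11 Schwann cell and nerve genes. Fabp4 was the 1 adipocyte gene of 14 that was higher (list median 0.36). Without control replicate 3 the adipocyte median turned to -0.16, with 3 members lower. None of 29 cholesterol and fatty acid synthesis genes (median -0.18) or of 13 calcineurin and RCAN genes (median -0.01) passed. The most abundant of these were Scd2 (-0.35 ± 0.22) and Fdps (-0.24 ± 0.14) of lipid synthesis and Nfatc1 (-0.08 ± 0.20) and Ppp3cb (-0.01 ± 0.20) of calcineurin signalling. Medians of the immediate early, tendon, S100 and annexin, and Schwann cell lists were 0.04, -0.29, -0.03 and -0.20, and 0.06, -0.28, 0.23 and -0.18 without control replicate 3, where Tnmd and Clu no longer passed. The cholesterol and calcineurin medians were then -0.12 and -0.11, with 1 and 0 members lower.

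Direct comparisons with the other scaffolds, which share the PCL libraries with the comparison above, gave the values of the 31 genes beside each material. Against hydrogel, 13 genes were higher in PCL at the adjusted p (0.103% of 12633) and 0 were lower (0%), and against β-TCP 11 were higher (0.0871%) and 72 lower (0.57%). With β-TCP replicates 2 and 3 averaged these became 4 in all against hydrogel and 2 in all against β-TCP. Of the 31 genes, 12 were also higher than in hydrogel and 4 were also higher than in β-TCP (Cela1, Cst6, Sfrp5 and Gpr143). Gpr143 had entered the test only through its PCL libraries. The median difference of the 31 was 1.87 against control, 1.66 against hydrogel and 0.71 against β-TCP. Cst6 averaged 1.92 ± 1.57 FPKM (SD, n = 3) in hydrogel and 1.74 ± 0.599 in β-TCP, near its control level, and was higher in PCL than in either (3.85 and 3.84 on the log2 scale, adjusted p = 0.0097 and 0.0075). Mmp12 averaged 23.4 ± 18.7 FPKM in hydrogel and 374 ± 245 in β-TCP, and PCL exceeded hydrogel (4.73, adjusted p = 0.038) but did not pass against β-TCP (0.89, adjusted p = 0.44). Rgs1 (-0.59, adjusted p = 0.38) and Pld3 (-0.04, adjusted p = 0.91) gave values at or below 0 against β-TCP.

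**Figure D5:**
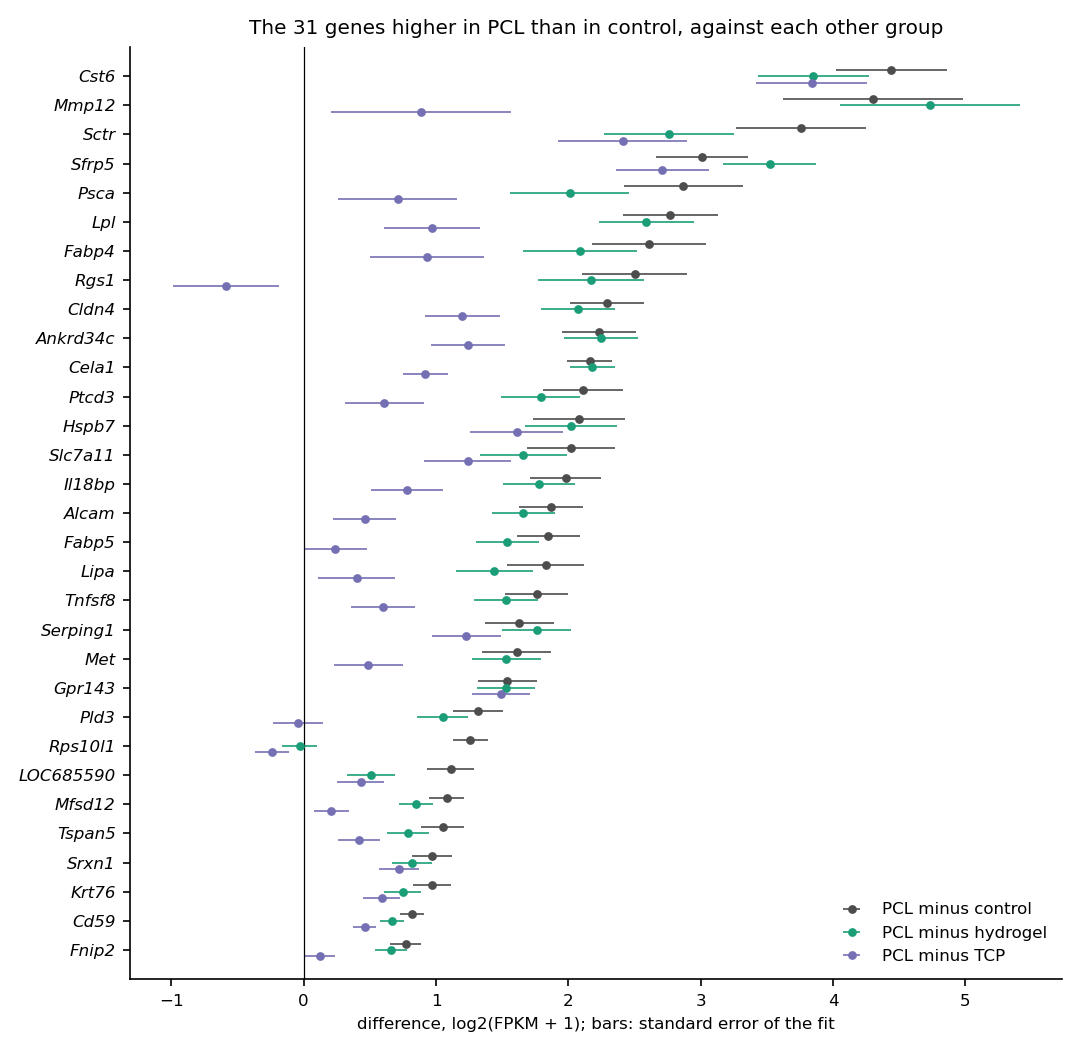
Difference of PCL from control, hydrogel and β-TCP (horizontal axis, log2(FPKM + 1), bars are the standard error of the fit) for each of the 31 genes higher in PCL than in control at the adjusted p. Cst6 lies near 4 in all 3 comparisons, while Mmp12 falls from 4.30 against control to 0.89 against β-TCP.

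Whole lists were compared with the other scaffolds in the same way. The lipid-handling macrophage list had medians of 0.73 against control, 0.82 against hydrogel and 0.02 against β-TCP, and the macrophage list 0.52, 0.18 and -0.64. Cartilage genes, at -3.00 against control, had medians of -0.20 against hydrogel and -0.35 against β-TCP. None was at the adjusted p in either, but none had passed it against control, and few of all genes passed it against the other scaffolds. Among genes at the adjusted p, the most negative differences from β-TCP were those of Cxcl1, a neutrophil chemokine (-2.42, adjusted p = 0.036), S100a5 (-2.15, adjusted p = 0.0028), Fos (-2.06, adjusted p = 0.048), Ccl12 (-2.03, adjusted p = 0.044) and Rcan2, a calcineurin regulator (-2.02, adjusted p = 0.035). Some members of the CD300 family of myeloid receptors were higher in PCL than in β-TCP. RGD1562156 was listed at 0 in all β-TCP libraries (adjusted p = 0.0075). Cd300ld averaged 0.0453 FPKM there (1.91, adjusted p = 0.030), and LOC100909671 gave 1.56 (adjusted p = 0.048). Cd300a, of the same family, averaged 25.7 FPKM in PCL and 20.3 FPKM in β-TCP and did not pass (0.34, adjusted p = 0.61). Against control RGD1562156 gave 1.59 ± 0.35 and Cd300ld 0.88 ± 0.29, and neither passed the adjusted p.

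The 10 genes with the highest mean FPKM were Hba1, Hbb, Hba2, LOC100134871 (a minor beta globin), Col1a1, Sparc, Spp1, Lyz2, Hbb-b1 and Tmsb4x. Reads of the globin copies may be shared between near-identical genes, so their split is uncertain. Lyz2, the lysozyme of macrophages, measured 3266.7, 2350 and 1349.3 FPKM in control and 3723.6, 4258.7 and 3949.6 FPKM in PCL (0.87 ± 0.39), without overlap and below the fold threshold, and Sparc gave -0.67 ± 0.35 and Tmsb4x 0.43 ± 0.19. LOC103690108, a class I histocompatibility gene, was the widest-ranging gene outside muscle, at 1.25, 118 and 106 FPKM in PCL replicates 1 to 3. Stfa2l1, a stefin of neutrophils, was at 0, 12.2 and 13.1 FPKM in the same libraries. Of the genes the study discusses that are not given above, Cxcl13 (1.51 ± 1.22), Cxcl12 (0.35 ± 0.44), Ccl2 (0.36 ± 0.36) and Arg1 (0.09 ± 1.02) did not pass either threshold, Col11a1 was lower (-1.36 ± 0.41) and Tnni1 higher (1.32 ± 0.57) at the fold threshold.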

How the data were processed

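Tissue RNA from 12 libraries in 4 groups was sequenced, and the FPKM values per gene, fragments per kilobase scaled to library size, were deposited by the authors on the Rnor_6.0 build with HISAT2, Cufflinks and HTSeq named in the submitters' notes. Versions are not given in the sources used here, and the labels and the paper name different kits and instruments. The table held 3 further columns that match no sample label and were not used. Whole fragments could be recovered from the FPKM steps for 18684 of 18684 genes above 0 (100%, tolerance 0.01). A gene was tested if 3 or more of the 12 libraries reached 1 FPKM (12633 of 22601 genes). A gene low in the other groups could thus enter through the PCL libraries alone, as Gpr143 did. It could also enter through the control libraries alone, as Chst5 did. A pseudocount of 1 FPKM was added before log2, and fold changes of low genes are therefore understated. One limma (3.58.1, R 4.3.3) model held 1 mean per group with a trended variance, and two-sided p-values were adjusted by Benjamini-Hochberg over 12633 genes. Values after ± are standard errors of this fit unless named SD.

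Genes were named by rule: those at the adjusted p, the 15 largest in each direction that held in every leave-one-out fit, up to 4 from each of 51 lists (the 2 most abundant where none passed), those the study names, the 10 highest and 10 widest-ranging in PCL, and the 5 largest per direction against each other scaffold. A further 21 genes (such as Cd68, Ctsk and Adipoq) were added after their values were seen, as were 3 globin genes in the erythroid list. A gene that the rule selects is not reported here. The members and lists were chosen with earlier results of these data known. Alternatives were other pseudocounts, filters, scalings, weights and fits, and each library left out in turn.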

Additional observations from a re-analysis of the deposited data

How the results depend on the processing

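Counts at the adjusted p were small and moved with most settings. The 31 higher and 4 lower genes had the same direction under every alternative. Their groups did not overlap, so leaving out a library or changing the pseudocount could not reverse a direction, and the constancy says little. Cela1 passed in 19 of 19 alternatives other than weights, and Cst6 in 18 of 19. Genes higher and lower than control at the adjusted p (31 and 4) became 81 and 19 with erythroid genes out of the total, 7 and 0 in a fit of the 2 groups alone, 9 and 0 with limma-voom on recovered fragments and 18 and 0 with β-TCP replicates 2 and 3 averaged. The lower count was 2 with a pseudocount of 0.1 or 5 FPKM and 1 with a minimum of 5 FPKM. At the fold threshold (300 and 160) the counts were 174 and 87 with a pseudocount of 5 FPKM, 178 higher with the 2 groups alone and 246 lower with limma-voom. Weights per library gave 3032 and 4264 genes at the adjusted p, 170 higher at the fold threshold, and 2476 and 6859 against hydrogel and β-TCP, with weights from 0.0439 (control replicate 3) to 40.6 (control replicate 1). Leaving out 1 library gave 2 to 33 higher and 0 to 36 lower at the adjusted p and 91 to 651 higher and 119 to 293 lower at the fold threshold. The cause of these shifts was not tested.

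With a replicate block the counts were 11 and 0 against control, 3 against hydrogel and 45 against β-TCP. Deviations of same-numbered control and PCL libraries correlated at -0.174, -0.372 and -0.452, so the numbers were not taken to pair samples.

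Against hydrogel (13 genes at the adjusted p, 97 at the fold threshold) the adjusted count was 6 and 16 with a pseudocount of 0.1 and 5 FPKM, 7 with a minimum of 5 FPKM, 26 with median-of-ratios scaling, 25 with quantile normalization, 31 with erythroid genes out, 1 with limma-voom and 4 with β-TCP averaged, and 1 to 20 without 1 library. The fold-threshold count was 161 and 55 with those pseudocounts, 175 with the 2 groups alone, 266 with weights, 168 with limma-voom and 78 to 163 without 1 library. Against β-TCP (83 and 566) the adjusted count was 38, 42, 50, 19, 2189, 45 and 2 with a pseudocount of 0.1 FPKM, a minimum of 5 FPKM, median-of-ratios, erythroid genes out, the 2 groups alone, limma-voom and β-TCP averaged, and 2 to 47 without 1 library. The fold-threshold count was 298 with a pseudocount of 5 FPKM, 319 with β-TCP averaged and 179 to 717 without 1 library.

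The genes below, whose log2 difference from control changed sign, had passed neither threshold. Values were Acta1 -0.17, Cd74 -0.32, Cd79b -1.13, Cxcl12 -0.50, LOC100909671 -0.33, LOC103690108 0.27, Mylpf -0.06, Nkg7 -0.77, Notch2 -0.12, RT1-Da -0.15, Spp1 0.25 with weights, Bglap 0.07, Nfatc1 0.09, Ppp3cb 0.16, Spp1 0.02 with erythroid genes out, Ctsk -0.27, Notch2 -0.04 with quantile normalization and Ctsk -0.01 with median-of-ratios scaling. Leaving out 1 library gave ranges of Arg1 -0.17 to 0.54, Bglap -0.49 to 0.19, Cd74 -0.02 to 0.89, Cd79b -1.08 to 1.40, Ctsk -0.20 to 0.17, Cxcl12 -0.30 to 0.76, LOC100909671 -0.03 to 0.64, LOC103690108 -1.69 to 1.17, Nfatc1 -0.19 to 0.06, Nkg7 -0.62 to 0.72, Notch2 -0.05 to 0.17, Ppp3cb -0.21 to 0.17, Rbpj 0 to 0.17, Spp1 -0.35 to 0.18. Depth is that of the recovered fragments, and genes below 1 FPKM in most libraries were not tested.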
